A study of Mus musculus with 10 samples.

Results

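Net1, Tspoap1, Elovl4, Sytl3, Tmem229b, Rundc3b and Sh3d21 are 7 genes of 45321 that were chosen by their measured log2 changes in these libraries: a strong effect of Compound 10, or an effect that changed with stimulation. Their values in those contrasts describe the choice and carry no test. RNA was sequenced from naive CD4 T cells of C57BL/6 mouse spleen, sorted as CD4+CD62L+CD69- cells and pretreated for 1 h. The 4 groups were cells given 12.5 µM Compound 10 and then 10 nM PMA with 1 µM ionomycin for 2 h (stimulated Compound 10, 3 libraries), cells given DMSO and the same stimulation (stimulated vehicle, 2 libraries), cells given Compound 10 and left without stimulation for that time (unstimulated Compound 10, 2 libraries), and cells given DMSO and left without stimulation (unstimulated vehicle, 3 libraries). All 7 passed the filter on low counts, as did 14417 genes in all. Nothing in the labels ties replicates to different mice or cultures, and the spread behind every p-value here may therefore be technical.

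PMA switches on protein kinase C, and ionomycin lets calcium into the cell, which frees the transcription factor NFAT through calcineurin. Nuclear NFAT binds many activation genes of T cells together with AP-1, and the submitters describe Compound 10 as a chemical inhibitor of this NFAT:AP-1 pairing. Net1 is an exchange factor that loads the small GTPase RhoA with GTP and so acts on the actin skeleton. Sytl3, a synaptotagmin-like protein, binds Rab27 on secretory vesicles, and Rundc3b carries a RUN domain, a fold found in partners of small GTPases. Elovl4 extends very long-chain fatty acids in the endoplasmic reticulum. Tspoap1 is an adaptor named for binding the mitochondrial protein TSPO and related to the RIM-binding proteins of synapses. Tmem229b is a membrane protein and Sh3d21 an SH3-domain protein, both little studied.

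RefSeq promoter windows (GRCm38.p6, 250 bases before to 50 after a start site) were matched for 6 of the 7 genes. Shown here are both Net1 windows, because Net1 has 2 annotated transcripts with separate start sites. Kallisto assigned most of its counts to the one that starts downstream. Also shown are the windows of Elovl4 and Sytl3 and 1 of the 2 windows of Sh3d21. These genes were higher with Compound 10 in at least 1 state. Their windows were chosen because they hold the NFAT core, so its presence in them is no result. Capitals mark matches to the NFAT core GGAAA on either strand, so that a match on the other strand reads TTTCC.
Net1, downstream start site, chr13:3893532-3893831, minus strand: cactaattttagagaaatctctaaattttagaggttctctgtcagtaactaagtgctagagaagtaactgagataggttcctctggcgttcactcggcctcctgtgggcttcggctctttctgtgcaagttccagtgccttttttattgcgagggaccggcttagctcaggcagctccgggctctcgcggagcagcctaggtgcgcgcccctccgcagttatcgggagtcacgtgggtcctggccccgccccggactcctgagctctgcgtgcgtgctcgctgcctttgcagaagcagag
Net1, upstream start site, chr13:3918171-3918470, minus strand: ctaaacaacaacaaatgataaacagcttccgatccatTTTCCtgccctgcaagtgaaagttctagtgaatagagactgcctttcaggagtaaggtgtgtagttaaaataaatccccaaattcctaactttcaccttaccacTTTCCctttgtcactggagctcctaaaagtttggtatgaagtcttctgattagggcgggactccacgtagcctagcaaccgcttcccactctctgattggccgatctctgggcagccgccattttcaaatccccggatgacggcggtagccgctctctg
Elovl4, chr9:83806256-83806555, minus strand: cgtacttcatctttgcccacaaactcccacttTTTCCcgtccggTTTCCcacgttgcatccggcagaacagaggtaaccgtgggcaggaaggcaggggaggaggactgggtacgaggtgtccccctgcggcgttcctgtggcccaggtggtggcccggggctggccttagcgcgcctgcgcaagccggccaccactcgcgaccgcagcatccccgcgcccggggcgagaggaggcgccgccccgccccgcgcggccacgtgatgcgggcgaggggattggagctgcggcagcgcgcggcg
Sytl3, chr17:6658809-6659108, plus strand: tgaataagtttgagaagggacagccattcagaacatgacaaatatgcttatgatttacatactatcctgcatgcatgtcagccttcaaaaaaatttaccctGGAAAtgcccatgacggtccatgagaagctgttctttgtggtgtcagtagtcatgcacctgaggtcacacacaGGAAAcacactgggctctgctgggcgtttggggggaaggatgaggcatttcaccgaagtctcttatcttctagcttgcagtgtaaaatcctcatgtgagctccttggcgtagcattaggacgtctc
Sh3d21, chr4:126162616-126162915, minus strand: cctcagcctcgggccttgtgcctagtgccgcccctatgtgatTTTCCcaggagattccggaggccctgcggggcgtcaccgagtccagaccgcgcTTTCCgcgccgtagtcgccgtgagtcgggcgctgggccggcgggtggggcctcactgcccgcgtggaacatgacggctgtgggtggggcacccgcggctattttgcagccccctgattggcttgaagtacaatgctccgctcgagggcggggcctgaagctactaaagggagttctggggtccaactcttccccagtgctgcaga
The AP-1 motif TGANTCA and the CRE motif TGACGTCA, searched on both strands, matched none of the 9 windows of these genes, whereas 7.81% and 1.79% of all 32851 windows hold them. The NFAT core, which overlaps neither, occurs in 61.3% of all windows. Among the genes it matched 2 times in the windows of Elovl4 and Sytl3, 2 times in the upstream Net1 window and 0 times in the downstream one. It matched 2 times and 1 time in the Sh3d21 windows and was not found in those of Rundc3b and Tmem229b. The Sytl3 window covers the start of Sytl3-201 (14.4% of counts). Sytl3-208 (54.6%) starts outside it at base 6663014 and Sytl3-205 (18.1%) at base 6705830. Tmem229b-204, with 75.6% of counts, starts at base 78980763, outside both Tmem229b windows.

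The label given to the set, genes moved at rest, fitted 5 of the 7. In unstimulated cells, called at rest here, Net1, Elovl4 and Sytl3 were higher and Tspoap1 and Tmem229b lower with Compound 10. These 5 were called, meaning an adjusted p under 0.05 in edgeR's quasi-likelihood fit over all tested genes, as were 4.65% of tested genes in the higher and 3.78% in the lower direction. Rundc3b and Sh3d21 were not called at rest, and their large differences lay in stimulated cells. In stimulated cells Elovl4, Rundc3b and Sh3d21 were called higher and Net1 and Tmem229b lower, where 10.4% of tested genes were called higher and 12.8% lower. The interaction, the Compound 10 effect in stimulated minus that in unstimulated cells, was called above 0 for Tspoap1, Rundc3b and Sh3d21 and below 0 for Net1 and Sytl3. Of all tested genes 2.55% were called above and 4.08% below 0. In bulk RNA, fewer cells of a type and less RNA per cell cannot be told apart.

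**Figure D1:**
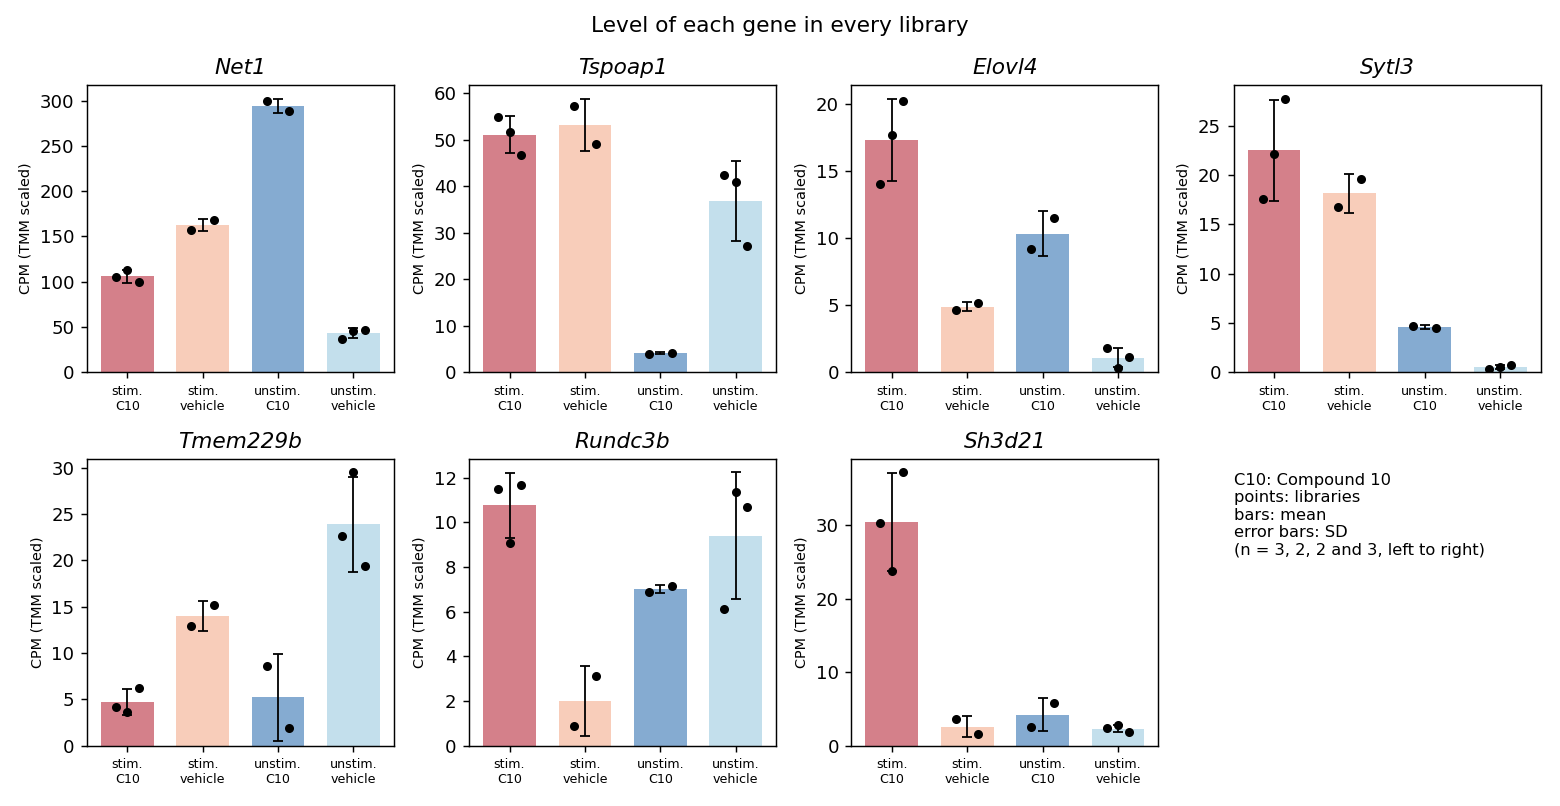
Level of each gene in CPM (counts scaled to library size with TMM factors) in the 4 groups, with 1 point per library, bars at the mean and error bars for the SD (n = 3, 2, 2 and 3, left to right). Net1 was highest in unstimulated cells given Compound 10, Tspoap1 lowest there, Sh3d21 highest in stimulated cells given Compound 10 and Rundc3b lowest in stimulated vehicle cells.

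Library totals ran between 10694591 and 33486259 estimated counts, and no 2 libraries of a group differed by as little as sampling noise (chi-square per degree of freedom 14.8 to 120). The sample index numbers of the deposited tables fall into 3 runs, 13 to 16, 19 to 22 and 25 to 29, so Compound 10 and vehicle can be compared within runs 2 and 3 at rest and within runs 1 and 2 after stimulation. All 10 T cell identity genes were found, with summed levels of 2523 to 2530 CPM in unstimulated Compound 10 and 1959 to 2161 CPM in unstimulated vehicle libraries, and of 3583 to 4176 CPM in stimulated Compound 10 and 4529 to 4879 CPM in stimulated vehicle libraries. All 6 B cell markers were found, at summed levels of 142.6 to 155 CPM in unstimulated Compound 10 and 63.7 to 116 CPM in unstimulated vehicle libraries, and at 289.6 to 426 CPM in stimulated Compound 10 and 195 to 288 CPM in stimulated vehicle libraries. The 11 memory or effector genes summed to 111 to 132 CPM in unstimulated Compound 10 and 80.6 to 84.0 CPM in unstimulated vehicle libraries. After stimulation their sums overlapped, at 246.5 to 261 CPM with Compound 10 and 238.9 to 251.4 CPM with vehicle. The 5 naive T genes summed to 1702 to 1904 CPM in stimulated Compound 10 and 1410 to 1453 CPM in stimulated vehicle libraries, and overlapped at rest. The 2 CD8 T genes did not exceed 10.56 CPM in any library. The 4 regulatory T genes summed to 50.4 to 80.8 CPM in stimulated Compound 10 and 173 to 212 CPM in stimulated vehicle libraries. At rest their sums leaned the other way and overlapped, at 29.17 to 35.25 CPM with Compound 10 and 17.73 to 30.1 CPM with vehicle. The part of these differences in the results on the 7 genes was not tested. Markers of NK cells (1 of 4 at 0 in every library) and of erythroid cells (1 of 3 at 0 in every library) did not exceed a sum of 3.10 CPM and 0.0548 CPM in any library, and the 6 myeloid markers did not exceed 4.31 CPM.

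Net1 (ENSMUSG00000021215, chr13:3882018-3918220, minus strand, mm10) had the clearest change of direction. It reached 300.2 and 289 CPM in unstimulated Compound 10 libraries, against 36.7, 45.9 and 47.0 CPM in unstimulated vehicle libraries. After stimulation it stood at 105, 113 and 99.4 CPM with Compound 10, against 158 and 168 CPM with vehicle. The 4 groups did not overlap and ran, high to low, unstimulated Compound 10, stimulated vehicle, stimulated Compound 10, unstimulated vehicle. Compound 10 went with 6.81-fold more Net1 RNA at rest (log2 2.77 ± 0.15, SE) and 1.54-fold less after stimulation (log2 -0.62 ± 0.15). The interaction was -3.39 ± 0.21 on the log2 scale. The smaller effect after stimulation, -0.67 and -0.57 without stimulated vehicle replicate 1 and 2, lost its call without either. Within index runs the differences of log2 CPM were 2.71 and 2.61 at rest and -0.59 and -0.57 after stimulation.

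Nearly all of this RNA was assigned to the shorter of the 2 annotated Net1 transcripts. Net1-202, which starts at base 3893578, held 96.0% of the gene's counts over all libraries, and Net1-201, which starts at base 3918220, held 4.03%. Net1-201 fell short of the minimum of 10% set for describing a transcript and is given because it is the only other one. Net1-202 averaged 284 ± 2.48 CPM (SD, n = 2) in unstimulated Compound 10 and 38.4 ± 4.41 CPM (n = 3) in unstimulated vehicle cells. Net1-201 averaged 10.3 ± 5.76 CPM in unstimulated Compound 10 and 4.78 ± 1.27 CPM in unstimulated vehicle cells. The share of Net1-202 was 95.2% and 97.9% in unstimulated Compound 10 libraries, against 90.9%, 88.6% and 87.8% in unstimulated vehicle libraries. It was 94.5% to 98.2% in stimulated Compound 10 and 96.7% to 99.2% in stimulated vehicle libraries. The unstimulated vehicle libraries were thus the lowest of the 10. An exact permutation test of these 3 against the 2 unstimulated Compound 10 libraries cannot give a two-sided p under 0.2. The two-sided p is taken here as 2 times the smaller tail. The 2 transcripts differ at both ends, Net1-202 reaching base 3882018 and Net1-201 base 3883333 at the 3′ end, so the shares do not measure use of the start sites.

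**Figure D2:**
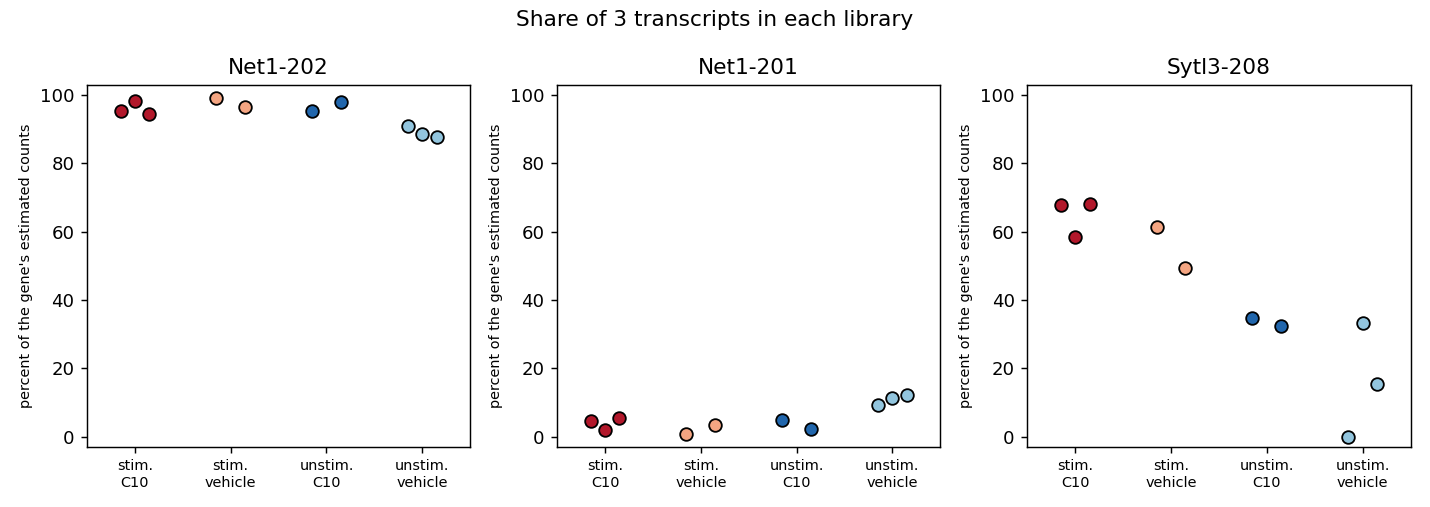
Share of Net1-202, Net1-201 and Sytl3-208 in the estimated counts of their gene, in percent, with 1 point per library in the 4 groups. The Net1-202 share lay between 87.8% and 90.9% in unstimulated vehicle libraries and at 94.5% or more in the others. The Sytl3-208 share was above 49% in stimulated libraries and below 35% in unstimulated ones. In unstimulated vehicle libraries it rested on gene totals of 6, 12 and 26 counts and is unsettled.

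Sytl3 (ENSMUSG00000041831, chr17:6659093-6738044, plus strand) was near the detection limit in unstimulated vehicle cells. Its level was 4.73 and 4.44 CPM in unstimulated Compound 10 libraries, against 0.329, 0.559 and 0.746 CPM in unstimulated vehicle libraries, where it rested on 6, 12 and 26 counts. In stimulated cells it had 17.6, 22.2 and 27.8 CPM with Compound 10, against 16.7 and 19.6 CPM with vehicle. The stimulated groups overlapped, and both stood above the unstimulated ones, of which Compound 10 was the higher. The Compound 10 effect was 7.98-fold at rest (log2 3.00 ± 0.32) and 1.24-fold after stimulation (0.31 ± 0.28), with an interaction of -2.69 ± 0.42. Within runs it was 2.85 and 2.41 at rest, and 0.07 and 0.18 after stimulation.

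Of the 9 Sytl3 transcripts in the files, Sytl3-208 took 54.6% of the counts. It is annotated as a processed transcript without a coding sequence, and spans bases 6663014 to 6680505 inside the gene. Its share was 58.3% to 68.2% in stimulated Compound 10, 49.2% to 61.5% in stimulated vehicle, 32.3% and 34.7% in unstimulated Compound 10, and 0% to 33.3% in unstimulated vehicle libraries. In unstimulated vehicle libraries it had only 0, 4 and 4 of the gene's 6, 12 and 26 counts, so the share there is unsettled. The split between models also varied within a group, with Sytl3-201 at 3.45%, 0.0025% and 16.5% in the stimulated Compound 10 libraries. The coding transcripts Sytl3-205 and Sytl3-201 held 18.1% and 14.4% over all libraries. Sytl3-205 averaged 1.32 ± 0.442 CPM in unstimulated Compound 10 and 0.309 ± 0.146 CPM in unstimulated vehicle cells, and Sytl3-201 averaged 1.28 ± 0.467 CPM in unstimulated Compound 10 cells and was at 0 in all 3 unstimulated vehicle libraries. At its far end the gene overlaps Ezr, on the opposite strand, by 4 bases, and the SMART-seq libraries do not mark strand. Ezr averaged 433 ± 118 CPM in unstimulated Compound 10 and 383 ± 126 CPM in unstimulated vehicle cells and was not called at rest (log2 0.17 ± 0.25, adjusted p = 0.732 in edgeR).

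Elovl4 (ENSMUSG00000032262, chr9:83778692-83806277, minus strand) was higher with Compound 10 in both states. It had 9.13 and 11.5 CPM in unstimulated Compound 10 libraries, against 1.75, 0.326 and 1.09 CPM in unstimulated vehicle libraries (32, 7 and 38 counts). Stimulated cells had 14.0, 17.7 and 20.2 CPM with Compound 10, against 4.64 and 5.11 CPM with vehicle. The groups did not overlap and ran, high to low, stimulated Compound 10, unstimulated Compound 10, stimulated vehicle, unstimulated vehicle. The fold was 9.83 at rest (log2 3.30 ± 0.44) and 3.54 after stimulation (1.82 ± 0.46), and the interaction of -1.47 ± 0.62 was not called. Within runs the difference was 4.40 and 3.27 at rest, and 1.58 and 1.77 after stimulation. The effect after stimulation, 1.76 and 1.91 without stimulated vehicle replicate 1 and 2, lost its call without either, and that at rest lost it in a fit of the unstimulated groups alone (3.31). Elovl4-201, the full-length transcript, held 86.8% of the counts and Elovl4-202 held 13.2%. Both averaged more in Compound 10 cells than in vehicle cells in each state.

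Tspoap1 (ENSMUSG00000034156, chr11:87760541-87785928, plus strand) was low in unstimulated Compound 10 cells and nowhere else. It had 3.96 and 4.17 CPM in unstimulated Compound 10 libraries, against 42.5, 41.0 and 27.0 CPM in unstimulated vehicle libraries. It had 54.8, 51.6 and 46.8 CPM in stimulated Compound 10 libraries, against 57.2 and 49.2 CPM in stimulated vehicle libraries. The stimulated groups overlapped, the unstimulated vehicle libraries lay just below them, and the unstimulated Compound 10 libraries lay far below all others. The effect at rest was 9.01-fold lower (log2 -3.17 ± 0.24). After stimulation it was -0.06 ± 0.21, within its error of 0, and the interaction was 3.11 ± 0.31. Within runs it was -3.34 and -2.67 at rest, and -0.06 and 0.07 after stimulation.

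Reads of Tspoap1 were spread over coding and retained-intron models. Tspoap1-202, a coding transcript, held 46.6% of counts, and the retained-intron transcripts Tspoap1-209 and Tspoap1-208 held 30.2% and 11.9%. All 3 were lower in unstimulated Compound 10 cells. Tspoap1-202 averaged 1.61 ± 2.20 CPM in unstimulated Compound 10 and 18.1 ± 4.16 CPM in unstimulated vehicle cells. Tspoap1-209 averaged 0.995 ± 0.484 CPM in unstimulated Compound 10 and 11.01 ± 3.66 CPM in unstimulated vehicle cells. Tspoap1-208 averaged 0.0603 ± 0.0853 CPM in unstimulated Compound 10 and 4.04 ± 0.895 CPM in unstimulated vehicle cells. The share of Tspoap1-202 was 1.34% in the one unstimulated Compound 10 library and 75.8% in the other, so the split between models is unsettled at 62 and 166 counts, whereas the gene total was close in both.

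Tmem229b (ENSMUSG00000046157, chr12:78961795-79007627, minus strand) was lower with Compound 10 in both states, and its 2 unstimulated Compound 10 libraries differed widely. They held 8.56 and 1.93 CPM, against 22.7, 29.5 and 19.4 CPM in unstimulated vehicle libraries. Stimulated Compound 10 libraries held 4.20, 3.68 and 6.28 CPM, against 12.9 and 15.1 CPM in stimulated vehicle libraries. The Compound 10 groups overlapped each other, and both lay below stimulated vehicle, which lay below unstimulated vehicle. The effect was 4.71-fold lower at rest (log2 -2.24 ± 0.51) and 2.97-fold lower after stimulation (-1.57 ± 0.48), and the interaction of 0.67 ± 0.69 was not called. Without unstimulated Compound 10 replicate 1 the effect at rest was -3.62 and the interaction 2.06, and without replicate 2 they were -1.47 and -0.11. The call at rest was lost without that replicate 2, without unstimulated vehicle replicate 1 or 2 (-2.25 and -2.05) and in a fit of the unstimulated groups alone (-2.21). The call after stimulation was lost without either stimulated vehicle library (-1.68 and -1.43), without stimulated Compound 10 replicate 1 or 2 (-1.49 and -1.41) and with library totals as the only scaling (-1.46). Within runs the difference was -1.77 and -3.26 at rest, and -1.59 and -2.01 after stimulation. Of 7 transcripts Tmem229b-204 held 75.6% of counts and Tmem229b-201 held 17.0%.

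Rundc3b (ENSMUSG00000040570, chr5:8490334-8622952, minus strand) stood out by its low level in stimulated vehicle cells. It had 11.5, 9.08 and 11.7 CPM in stimulated Compound 10 libraries, against 0.901 and 3.12 CPM in stimulated vehicle libraries (7 and 36 counts). At rest it had 6.90 and 7.13 CPM with Compound 10, against 6.14, 11.4 and 10.7 CPM with vehicle. The stimulated Compound 10 group overlapped unstimulated vehicle, which overlapped unstimulated Compound 10, and stimulated vehicle lay below all 3. The effect after stimulation was 5.12-fold higher (log2 2.36 ± 0.45). At rest it was -0.42 ± 0.38 and not called, with an interaction of 2.78 ± 0.59. Within runs it was 3.52 and 1.51 after stimulation, and -0.71 and -0.57 at rest. Without stimulated vehicle replicate 2 the effect after stimulation was 3.57 and the interaction 4.001. The interaction lost its call without stimulated vehicle replicate 1 (2.21) or unstimulated Compound 10 replicate 2 (2.78). Rundc3b-201 held 84.7% and Rundc3b-202 15.3% of the counts.

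Sh3d21 (ENSMUSG00000073758, chr4:126150602-126163491, minus strand) was high in stimulated Compound 10 cells alone among the 4 groups. It had 30.3, 23.8 and 37.2 CPM there, against 3.61 and 1.64 CPM in stimulated vehicle libraries (28 and 19 counts). At rest it had 2.62 and 5.80 CPM with Compound 10, against 2.36, 2.80 and 1.89 CPM with vehicle. The 3 low groups overlapped one another, and none reached the stimulated Compound 10 libraries. The effect after stimulation was 11.9-fold higher (log2 3.57 ± 0.45). At rest it was 0.88 ± 0.38 and not called, and the interaction was 2.69 ± 0.58. Within runs it was 3.03 and 3.77 after stimulation, and -0.09 and 1.56 at rest. Without stimulated vehicle replicate 1 the effect after stimulation was 4.20 and the interaction 3.33. Without unstimulated Compound 10 replicate 2 the effect at rest was 0.18 and the interaction 3.39. The interaction lost its call without stimulated vehicle replicate 2 (2.21) or unstimulated vehicle replicate 2 (2.54). The coding transcript Sh3d21-201 held 62.6% of counts, and it averaged 20.98 ± 7.18 CPM in stimulated Compound 10 and 1.26 ± 1.75 CPM in stimulated vehicle cells.

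**Figure D3:**
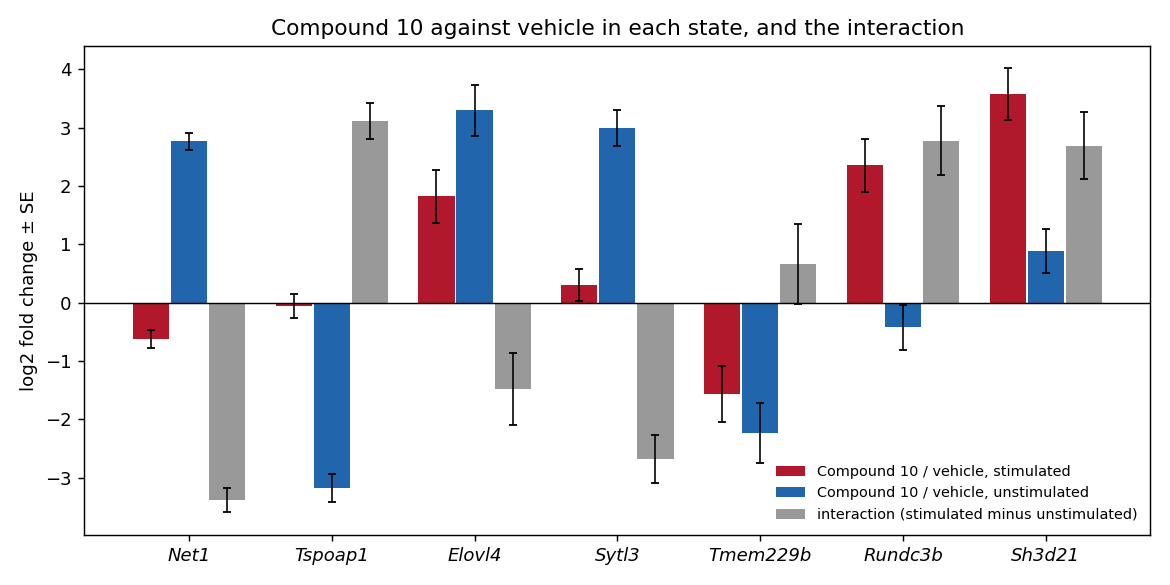
Log2 fold change of each gene, Compound 10 over vehicle, in stimulated and in unstimulated cells, with the interaction (stimulated minus unstimulated) and error bars for the SE. Net1 is above 0 at rest (2.77) and below 0 after stimulation (-0.62), Tspoap1 (-3.17) and Sytl3 (3.00) lie far from 0 at rest and within 0.31 of it after stimulation, and Rundc3b and Sh3d21 differ most after stimulation.

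By size of the effect at rest among 14417 tested genes, Elovl4 ranked 113, Tspoap1 122, Sytl3 147, Net1 166 and Tmem229b 271, while Sh3d21 ranked 2394 and Rundc3b 6575. Per transcript length, in TPM as deposited, Net1 was the most abundant of the 7 in every group, at 146 ± 16.7 TPM in unstimulated Compound 10 and 22.9 ± 3.12 TPM in unstimulated vehicle cells (SD, n = 2 and 3). Tspoap1 was last of the 7 in unstimulated Compound 10 cells, at 2.12 ± 0.876 TPM, and came second in unstimulated vehicle cells, at 20.3 ± 8.04 TPM. Sytl3, at 4.82 ± 0.717 TPM in unstimulated Compound 10 and 0.638 ± 0.173 TPM in unstimulated vehicle cells, was the lowest of the 7 in the vehicle group.

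Stimulation itself moved 4 of the 7 genes in vehicle cells. Sytl3, Elovl4 and Net1 rose and Rundc3b fell, by edgeR's quasi-likelihood test adjusted over all tested genes, where 19.5% of genes rose and 19.4% fell. This contrast alone was not used to pick the genes. The interaction, which was used, is the response with Compound 10 minus this one. The vehicle libraries are also those that Compound 10 was compared with. The adjusted p-values given here and below, that of Rundc3b included, are therefore not independent of the choice. Sytl3 averaged 18.2 ± 2.00 CPM (SD, n = 2) in stimulated vehicle and 0.545 ± 0.209 CPM (n = 3) in unstimulated vehicle cells, a log2 change of 4.98 ± 0.32 (adjusted p = 6.22e-07). Elovl4 changed by 2.22 ± 0.46 (adjusted p = 0.00282), with 4.87 ± 0.333 CPM in stimulated vehicle and 1.06 ± 0.714 CPM in unstimulated vehicle cells. Net1 changed by 1.91 ± 0.15 (adjusted p = 2.53e-06), with 163 ± 7.16 CPM in stimulated vehicle and 43.2 ± 5.67 CPM in unstimulated vehicle cells. For all 3 the libraries of the states did not overlap. That does not set them apart, since Rundc3b and also Tspoap1 and Tmem229b, which were not called, did not overlap either. The share of all tested genes without overlap was not counted, so the lack of overlap is no result.

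Rundc3b changed by -2.17 ± 0.45 (adjusted p = 0.00254 in edgeR), with 2.01 ± 1.57 CPM in stimulated vehicle and 9.39 ± 2.84 CPM in unstimulated vehicle cells. Without stimulated vehicle replicate 2 its change was -3.39. Tspoap1, Tmem229b and Sh3d21 did not pass. Tspoap1 changed by 0.53 ± 0.20 (adjusted p = 0.0593), and the libraries of the states did not overlap. Without unstimulated vehicle replicate 1 it passed (0.66, adjusted p = 0.0412). With library totals as the only scaling it was -0.25, where the median of all tested genes was -0.83, so it stood above the median under both scalings. Tmem229b changed by -0.77 ± 0.47 (adjusted p = 0.230), also without overlap. It passed in 5 alternative fits, among them that of the vehicle groups alone (adjusted p = 0.0399) and those without unstimulated Compound 10 replicate 1 or 2 (0.0454 and 0.0438). Sh3d21 changed by 0.13 ± 0.43 (adjusted p = 0.844), and by -0.51 without stimulated vehicle replicate 1.

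In Compound 10 cells the response to stimulation looked different, as the interaction fixes it to for the 5 genes called there, and it is given with no test. Tspoap1 (3.65 ± 0.25), Sh3d21 (2.82 ± 0.41) and Sytl3 (2.30 ± 0.30) were higher in stimulated than in unstimulated Compound 10 cells and Net1 (-1.48 ± 0.15) was lower, so 3 were called higher and 1 lower, where 12.8% and 13.7% of tested genes were called higher and lower. Elovl4 (0.74 ± 0.42), Rundc3b (0.61 ± 0.39) and Tmem229b (-0.10 ± 0.50) were not called. Net1 was thus higher in stimulated cells under vehicle and lower in stimulated cells with Compound 10. Leaving out unstimulated Compound 10 replicate 1 or 2 gave 1.28 or -0.88 for Tmem229b, and leaving out replicate 2 gave 3.51 for Sh3d21.

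**Figure D4:**
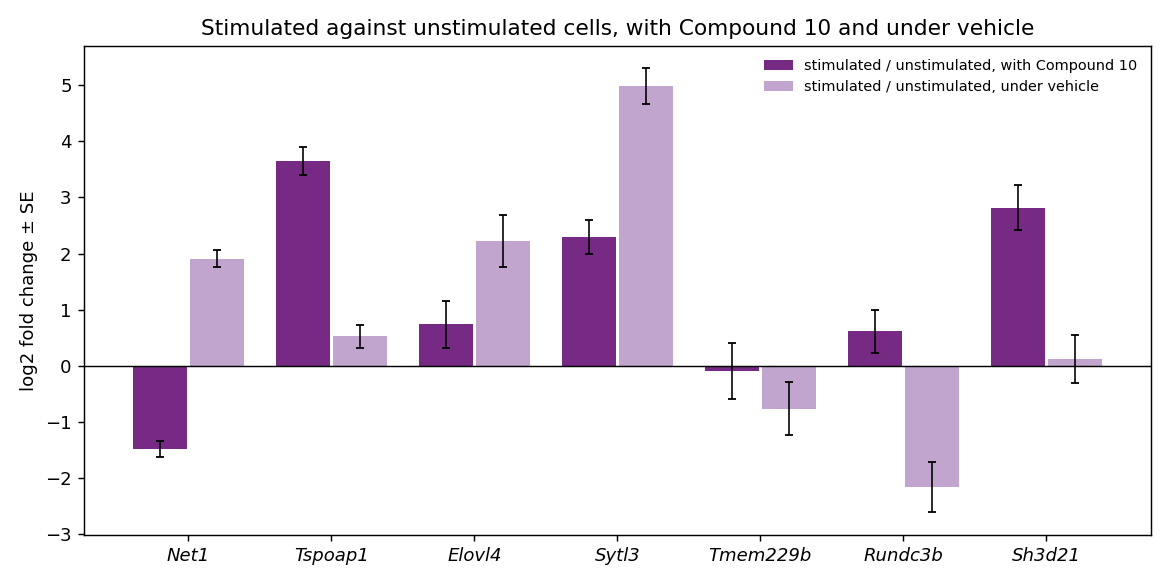
Log2 fold change of each gene, stimulated over unstimulated cells, with Compound 10 and under vehicle, with error bars for the SE. Net1 is at -1.48 with Compound 10 and 1.91 under vehicle, Tspoap1 is at 3.65 with Compound 10 and 0.53 under vehicle, and Sh3d21 is at 2.82 with Compound 10 and 0.13 under vehicle.

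Relatives and partners of the 7 genes were read from a list of 62, of which 48 were tested. Compound 10 went with 5 higher and 3 lower at rest and with 7 higher and 7 lower after stimulation, where over all tested genes 4.65% and 3.78% were called higher and lower at rest and 10.4% and 12.8% after stimulation. The list's median log2 change was 0.25 at rest and 0.40 after stimulation, beside 0.0022 and 0.0421 over all tested genes. Arhgef3, an exchange factor for RhoA and RhoB and the nearest relative of Net1, took the same turn. It averaged 238 ± 32.4 CPM in unstimulated Compound 10 and 98.9 ± 24.0 CPM in unstimulated vehicle cells, and 377 ± 38.0 CPM in stimulated Compound 10 and 1468 ± 147 CPM in stimulated vehicle cells. Its effect was 1.27 ± 0.20 at rest (adjusted p = 0.00520 in edgeR; 0.0556 in a fit of the unstimulated groups alone) and -1.96 ± 0.20 after stimulation (adjusted p = 0.000107), with an interaction of -3.23 ± 0.29 (adjusted p = 0.000567), the only interaction called on the list.

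Arhgef10 was higher in both states, by 1.59 ± 0.18 at rest and 1.05 ± 0.18 after stimulation (adjusted p = 0.000812 and 0.00192 in edgeR). After stimulation Arhgef1, the lymphocyte RhoA exchange factor, was higher by 1.38 ± 0.24, Vav3 by 1.35 ± 0.32 and Arhgef18 by 0.99 ± 0.25 (adjusted p = 0.00170, 0.0105 and 0.0144). For the fatty acid elongation list of Elovl4, 11 were tested, of which 1 was higher and 1 lower at rest and 3 were lower after stimulation. Elovl7 was higher at rest by 1.39 ± 0.28 (adjusted p = 0.0150). Hsd17b12, a reductase of the elongation cycle, fell by 0.77 ± 0.16 at rest and by 1.12 ± 0.15 after stimulation (adjusted p = 0.0168 and 0.000464), and Elovl1 fell by 1.45 ± 0.27 after stimulation (adjusted p = 0.00277). After stimulation Elovl4 was thus higher with Compound 10 while these 2 genes of the same pathway were lower. Other elongases pointed the same way as Elovl4 without a call, namely Elovl2 (0.82), Elovl5 (0.28), Elovl6 (1.03) and Elovl7 (0.75). The median of this list after stimulation was 0.26.

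Of 7 tested genes on the list of Sytl3 (synaptotagmin-like proteins, Rab27 and granule docking), 0 passed at rest and 1 was lower after stimulation. Of the 5 RUN domain and RAP2 genes, 2 were lower at rest and 1 after stimulation, namely Rundc1 in both, by -0.74 ± 0.18 and -1.55 ± 0.18 (adjusted p = 0.0295 and 0.000168 in edgeR), opposite to Rundc3b after stimulation. Of 4 SH3 adaptors Sh3kbp1 was higher in both states, by 0.59 ± 0.16 and 0.78 ± 0.16 (adjusted p = 0.0432 and 0.00536). Of 3 tested genes on the list of Tspoap1, 1 was higher at rest and 0 passed after stimulation. Without unstimulated Compound 10 replicate 2, the calls at rest were lost for Rundc1 (-0.50), Hsd17b12 (-0.76), Elovl7 (0.98) and Sh3kbp1 (0.69), among losses in 6, 3, 2 and 12 of 18 alternatives for these 4 genes in that order. Those of Vav3 (1.26) and Arhgef18 (0.89) after stimulation were lost without stimulated vehicle replicate 1 and also without replicate 2, and that of Sh3kbp1 (0.75) without replicate 1.

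Neighbours of the 7 in the genome were read from the same fit. The nearest tested gene above Net1 is Akr1c18, a hydroxysteroid dehydrogenase, 214395 bases away. It averaged 1.06 ± 0.736 CPM in stimulated Compound 10 and 19.6 ± 8.56 CPM in stimulated vehicle cells (log2 -4.16 ± 0.57, adjusted p = 0.000444 in edgeR), and 0.348 ± 0.0405 CPM in unstimulated Compound 10 and 0.0155 ± 0.0269 CPM in unstimulated vehicle cells. Ttk, a mitotic kinase 28412 bases from Elovl4, was higher with Compound 10 in both states at low levels, with 1.58 ± 0.109 CPM in unstimulated Compound 10 and 0.116 ± 0.117 CPM in unstimulated vehicle cells, and 4.70 ± 0.148 CPM in stimulated Compound 10 and 0.193 ± 0.273 CPM in stimulated vehicle cells. Pigh, 73037 bases from Tmem229b, fell by 1.41 ± 0.32 at rest and by 1.19 ± 0.35 after stimulation (adjusted p = 0.0238 and 0.0293), calls that were lost without unstimulated Compound 10 replicate 2 (-1.22) and without stimulated vehicle replicate 2 (-0.77). The nearest tested genes on either side of Rundc3b were higher with Compound 10 after stimulation, Slc25a40 by 1.58 ± 0.28 and Abcb1a by 2.71 ± 0.66 (adjusted p = 0.00192 and 0.0121), although the call of Abcb1a was lost without stimulated vehicle replicate 2 (2.24). Abcb1a was also higher at rest, by 2.09 ± 0.54 (adjusted p = 0.0380), a call lost in 7 of 18 alternatives, whereas Rundc3b was not called there. Gm42685, which overlaps Rundc3b by 2390 bases on the same strand, was not called after stimulation (0.04 ± 0.70, adjusted p = 0.979) or at rest (0.50 ± 0.62, adjusted p = 0.685). Slc25a40 was also lower in stimulated vehicle cells than in the other groups, at 3.75 ± 0.527 CPM, against 11.2 ± 2.39 CPM in stimulated Compound 10 and 8.67 ± 0.729 CPM in unstimulated vehicle cells.

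Around Tspoap1, Mir142hg lies 3271 bases below and Mpo 7653 bases above, and neither was called at rest (0.07 ± 0.27 and -2.62 ± 0.83, adjusted p = 0.919 and 0.0765 in edgeR). Mpo still leaned the way of Tspoap1, with 0.07 ± 0.65 after stimulation and an interaction of 2.70 ± 1.05 (adjusted p = 0.155). It was at low levels, 0.0879 ± 0.124 CPM in unstimulated Compound 10 and 0.722 ± 0.242 CPM in unstimulated vehicle cells. Mir142hg was called higher after stimulation (0.85 ± 0.28, adjusted p = 0.0496), a call lost in 11 of 18 alternatives. Sh3d21 lies 727 bases from Eva1b and 591 bases from Thrap3. Eva1b averaged 14.3 ± 3.67 CPM in stimulated Compound 10 and 10.9 ± 1.03 CPM in stimulated vehicle cells (0.40 ± 0.28, adjusted p = 0.344), and Thrap3 averaged 165 ± 15.3 CPM in stimulated Compound 10 and 236 ± 22.1 CPM in stimulated vehicle cells (-0.52 ± 0.16, adjusted p = 0.0355, lost without either stimulated vehicle library at -0.42 and -0.60). Neither was called higher where Sh3d21 was.

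Some genes had nearly the same profile over the 10 libraries, by Pearson r of log2 CPM among 11666 named genes. These r values describe libraries that share depth and treatment and carry no p. Sytl3 was most like Tespa1 (r = 0.99), Ptpn7 (0.99) and Luzp1 (0.99). Sh3d21 was most like Styx (0.98), Tmem259 (0.98) and Nrros (0.97). Rundc3b was most like Cab39l (0.97), Sorbs3 (0.96) and Gipc1 (0.96). Elovl4 was most like Efna3 (0.96), Tulp4 (0.96) and Slco4a1 (0.96), and Tmem229b like Cpsf2 (0.96), Zbtb49 (0.96) and Pidd1 (0.95). Net1 was most like Khdc4 (0.95), Adipor2 (0.92) and Cirbp (0.92), and Tspoap1 like St3gal4 (0.93), Fbxl18 (0.92) and Atp2c1 (0.92). Khdc4 kept the order of Net1 in smaller steps, with 331 ± 30.5 CPM in unstimulated Compound 10 and 209 ± 5.89 CPM in unstimulated vehicle cells, and 263 ± 10.8 CPM in stimulated Compound 10 and 282 ± 15.5 CPM in stimulated vehicle cells. Among the 7 themselves, r ran from -0.85 between Elovl4 and Tmem229b to 0.83 between Elovl4 and Sytl3.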

How the data were processed

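Each deposited table gives, per the file headers, kallisto's estimated count and length for every transcript of 1 library. TPM values computed by the authors' kallisto run stand in the same deposited tables. Cutadapt, kallisto and mm10 come from the submitters' processing notes; neither software versions nor the kallisto index are stated in the sources used here. Of 109617 transcripts 108214 matched GENCODE M21, and counts were summed per gene and rounded.

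Counts were fitted with edgeR 4.0.16 (limma 3.58.1, R 4.3.3), with 1 coefficient per group over all 10 libraries, TMM factors and filterByExpr, which kept 14417 of 45321 genes. Quasi-likelihood F tests were adjusted by Benjamini-Hochberg, and an adjusted p under 0.05 is a call. The SE comes from the estimate and its F statistic. CPM use TMM factors, with a prior count of 2 on the log scale. The code was tested on simulated data.

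The 7 genes, the list of relatives and the markers were chosen with earlier results of these data known. Named were relatives called in a Compound 10 contrast (at most 10, by smallest adjusted p), overlapping and nearest tested genes, and the 3 genes most alike to each. Transcripts are described at 10% or more of a gene's counts. Alternatives were DESeq2 1.42.0 and other scalings, filters, blocks and subsets.

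Replicate numbers are not said to pair libraries. Same-numbered libraries of different groups had correlated deviations in 2 of 13 pairs (r over 0.1, range -0.279 to 0.331). Libraries of the same index run had them in 3 of 12 pairs (-0.0516 to 0.464), and no block was used. Both same-run pairs of Compound 10 and vehicle at rest were among these 3 (0.279 and 0.464). Deviations mirror each other in groups of 2, so these counts do not settle whether runs tie libraries. An index run block gave 2403 calls at rest, against 1215.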

Additional observations from a re-analysis of the deposited data

Results flagged for a closer look

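The effect of Compound 10 differed between stimulated and unstimulated cells for 5 of the 7 genes by the interaction term of edgeR's fit. Of all tested genes 2.55% were called above and 4.08% below 0 by this term. The genes were picked partly on this term, so the values describe the choice. The interaction was -3.39 for Net1, 3.11 for Tspoap1, -2.69 for Sytl3, 2.78 for Rundc3b and 2.69 for Sh3d21 on the log2 scale. Of the relatives and neighbours, Arhgef3 had an interaction of -3.23, Slc25a40 of 1.43 and Akr1c18 of -8.30. The Slc25a40 interaction (adjusted p = 0.0424 in edgeR) lost its call in 8 of 17 alternatives, with adjusted p up to 0.170. The Akr1c18 value rests on unstimulated vehicle libraries near 0 counts and depends on the prior count.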

How the results depend on the processing

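Of 623 refits of the 7 genes' changes, 584 kept direction and side of the threshold, 18 lost and 7 gained a call and 14 changed sign. Calls at rest numbered 1215, against 122 with the groups of the contrast alone, 1870 with DESeq2 and 2403 with an index run block, and 325 to 1335 without single libraries. Interaction calls numbered 956, against 1448 with no filter, 1649 with DESeq2, 1504 with a replicate block and 2167 with an index run block, and 191 to 1332 without single libraries. Leaving out a library gave 1589 to 3919 calls after stimulation (3350 with all 10), 3568 to 5769 for stimulation under vehicle (5617) and 2347 to 4370 with Compound 10 (3816, or 6029 with library totals only). Calls for stimulation under vehicle stayed at 4 or 5 of the 7 genes, where the main fit called 19.5% of all tested genes higher and 19.4% lower. The cause of these shifts was not tested. Scaling moved the split of higher and lower calls: 470 and 637 at rest with library totals (670 and 545 with TMM), 2090 and 1528 after stimulation with upper-quartile factors (1502 and 1848), 494 and 476 (upper quartile) or 527 and 314 (totals) for the interaction (368 and 588), and 1202 and 6610 or 810 and 5219 for stimulation under vehicle or with Compound 10 with totals, where the median gene moved by -0.83 or -0.60.

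Small changes turned sign. Tspoap1 after stimulation (-0.06) was 0.0772 with upper-quartile factors, 0.0545 with totals, 0.0796 with the replicate block, 0.0505 with the index run block, 0.0691 within run 2 and 0.17 in TPM, and it was -0.154 to 0.0533 without single libraries. With totals, where all genes shifted as given above, Tspoap1 under vehicle (0.53) was -0.25, and it was -0.32 in TPM. Sh3d21 under vehicle (0.13) was -0.66 with totals, -0.56 in TPM and -0.51 to 0.61 without single libraries. Sh3d21 at rest was -0.0909 within run 2. Tmem229b with Compound 10 (-0.10) was 0.15 with the index run block and -0.88 to 1.28 without single libraries, and its interaction was -0.11 to 2.06. At this depth, Elovl4 and Sytl3 in unstimulated vehicle cells rested on 6 to 38 counts a library.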
